A study of Rattus norvegicus with 10 samples.

Results

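The activin and inhibin genes of rat liver were followed through 10 genes: the subunits Inha, Inhba, Inhbb, Inhbc and Inhbe, the binding proteins Fst and Fstl3, and the receptors Acvr1, Acvr2a and Acvr2b. They were chosen by gene name, each with every array probe set annotated to it alone, which gave 15 of the 31042 probe sets outside the manufacturer's controls. The family was proposed with the result of the same comparison known, Inhba being among the deepest falls. The differences of its members between the groups are therefore given as a description, and no test result of a member is taken as support. Liver RNA came from 10 female Harlan Sprague-Dawley rat samples on whole-genome 3' expression arrays, in 2 groups of 5. The dosed samples come from rats gavaged with 300 mg of indole-3-carbinol (I3C) per kg in corn oil on 5 days per week. I3C forms when cruciferous vegetables are cut or chewed. The vehicle samples come from rats gavaged with corn oil alone on the same schedule, recorded as a dose of 0. Dosing ran for 13 weeks in both groups by the labels, whereas the series was described as a 2-year study. Ages and animal numbers are not in the labels, so the p-values reflect the spread among these samples, which may be technical.

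Activins are dimers of inhibin beta subunits, and inhibins pair 1 beta subunit with the alpha subunit. Activin binds a type II receptor, which recruits and switches on a type I receptor, and SMAD proteins then carry the signal to the nucleus. Follistatin and its relative FSTL3 bind activin outside the cell and keep it from its receptors. In liver, activin A, the dimer of Inhba products, is known to restrain hepatocyte growth, and Inhbc and Inhbe are known in rodents as subunits that hepatocytes make in abundance.

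The start regions of Inhba, the member that differed most between the groups, and of Inhbe, the member with the largest positive difference, are shown because they stand for the opposite ends of the family. They come from RefSeq on GRCr8, from 250 bases before to 50 after the gene start, at chr17:53804459-53804758 (minus strand) and chr7:65064470-65064769 (minus strand). Capitals mark a match to any of 4 motifs searched on both strands: GCGTG, the core of the aryl hydrocarbon receptor element, TGATGNAA, a CEBP-ATF element, TGANTCA for AP-1, and TGACGTCA, the cyclic AMP element.
Inhba: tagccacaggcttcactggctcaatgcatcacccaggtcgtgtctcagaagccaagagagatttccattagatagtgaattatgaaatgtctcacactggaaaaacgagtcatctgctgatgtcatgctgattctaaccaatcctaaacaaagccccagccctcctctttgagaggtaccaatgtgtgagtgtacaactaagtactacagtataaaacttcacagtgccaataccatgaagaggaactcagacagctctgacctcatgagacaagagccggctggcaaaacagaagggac
Inhbe: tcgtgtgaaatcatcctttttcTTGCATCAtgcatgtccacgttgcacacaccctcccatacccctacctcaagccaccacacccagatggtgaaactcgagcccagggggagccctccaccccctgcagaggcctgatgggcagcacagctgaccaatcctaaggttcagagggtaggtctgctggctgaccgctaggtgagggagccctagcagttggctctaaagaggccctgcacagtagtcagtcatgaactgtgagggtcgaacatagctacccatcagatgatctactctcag
The Inhba window held none of the 4 motifs, and the Inhbe window held 1 TGATGNAA match, on the opposite strand, starting at position -228. The table holds a start region for 8 of the 10 genes, and those of Fst and Acvr1 were not analysed here. GCGTG stood in 2 of the 8, Inha and Acvr2a, against 29.7% of all 33469 start regions of this length. TGATGNAA stood in 1 of the 8 against 3.98%, and AP-1 and cyclic AMP letters stood in 0 of the 8 against 7.33% and 1.83%. A match describes the letters only. Inhbe and Inhbc lie on the same strand of chromosome 7 with start regions 18400 bases apart.

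The arrays were even in brightness, with medians from 6.22 to 6.30 on the log2 scale. Vehicle 5 stood apart from the other arrays on the second principal component (47.8, against -15.1 to 7.4). The GAPDH control probe sets, a measure of RNA quality, had a 3' minus 5' difference of 0.32 to 0.65 in vehicle arrays and 0.16 to 0.29 in dosed arrays. These ranges did not overlap, so by this measure RNA quality and dosing cannot be told apart, also in fits with it as a covariate. The same difference for beta-actin was 1.45 to 1.74 in vehicle arrays and 1.17 to 1.53 in dosed arrays, with overlap. Of 7 measured hepatocyte markers 6, Alb among them, lay at about the 100th percentile of brightness. Of the 7, Apoa1, the main protein of HDL, rose by 0.38 ± 0.07 and Tat, a tyrosine aminotransferase, by 0.93 ± 0.16, and the other 5 did not pass.

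Among the subunits, Inhba was the member that separated the groups. Its brighter probe set (1383486_at) read 10.22, 9.95, 9.95, 10.27 and 9.89 in the 5 vehicle samples and 8.04, 8.43, 8.61, 7.91 and 9.03 in the 5 dosed samples. All dosed samples were lower than every vehicle sample, with a gap of 0.87 between the highest dosed and the lowest vehicle value. The difference was -1.65 ± 0.18 on the log2 scale (SE of the limma fit, n = 5 per group), a 3.14-fold lower mean, and by its brightest probe set Inhba stood 15th among falls of all 14217 genes. The SD was 0.45 in dosed and 0.17 in vehicle samples, a ratio of 2.6, and the dosed SD lay at percentile 98.4 of probe sets brighter than the median. The dosed samples thus shared the direction and differed in depth, dosed 5 keeping the highest level and dosed 4 and dosed 1 the lowest.

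The second Inhba probe set (1369012_at) did not separate the groups. It read 6.86, 6.74, 6.94, 6.73 and 6.997 in vehicle samples and 6.89, 6.57, 6.55, 6.72 and 6.61 in dosed samples, so that dosed 1 lay among the vehicle values. The difference was -0.19 ± 0.08 (SE), of the same sign. The annotation ties this probe set to a RefSeq transcript of Inhba and gives no accession for the brighter one, whose name rests on the platform annotation alone. A fall of Inhba thus stands on 1 of its 2 probe sets.

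Over the whole family, 1 of the 15 probe sets, the brighter one of Inhba, lay past the limma threshold (adjusted p of 0.05 over all probe sets), where 4.79% of all probe sets did and 2.3% were lower. Because the family was chosen with this contrast known, nothing is read from that count, which was 2 without vehicle 5. The groups did not overlap for 2 of the 15, both lower in dosed samples, where 6.5% of all probe sets had no overlap and 3.07% were lower. The differences were positive for 6 and negative for 9 probe sets, with a median of -0.04 against -0.0033 over all probe sets. Without regard to sign the median was 0.11 against 0.08, and 13 of the 15 lay within 0.2 of 0.

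**Figure D1:**
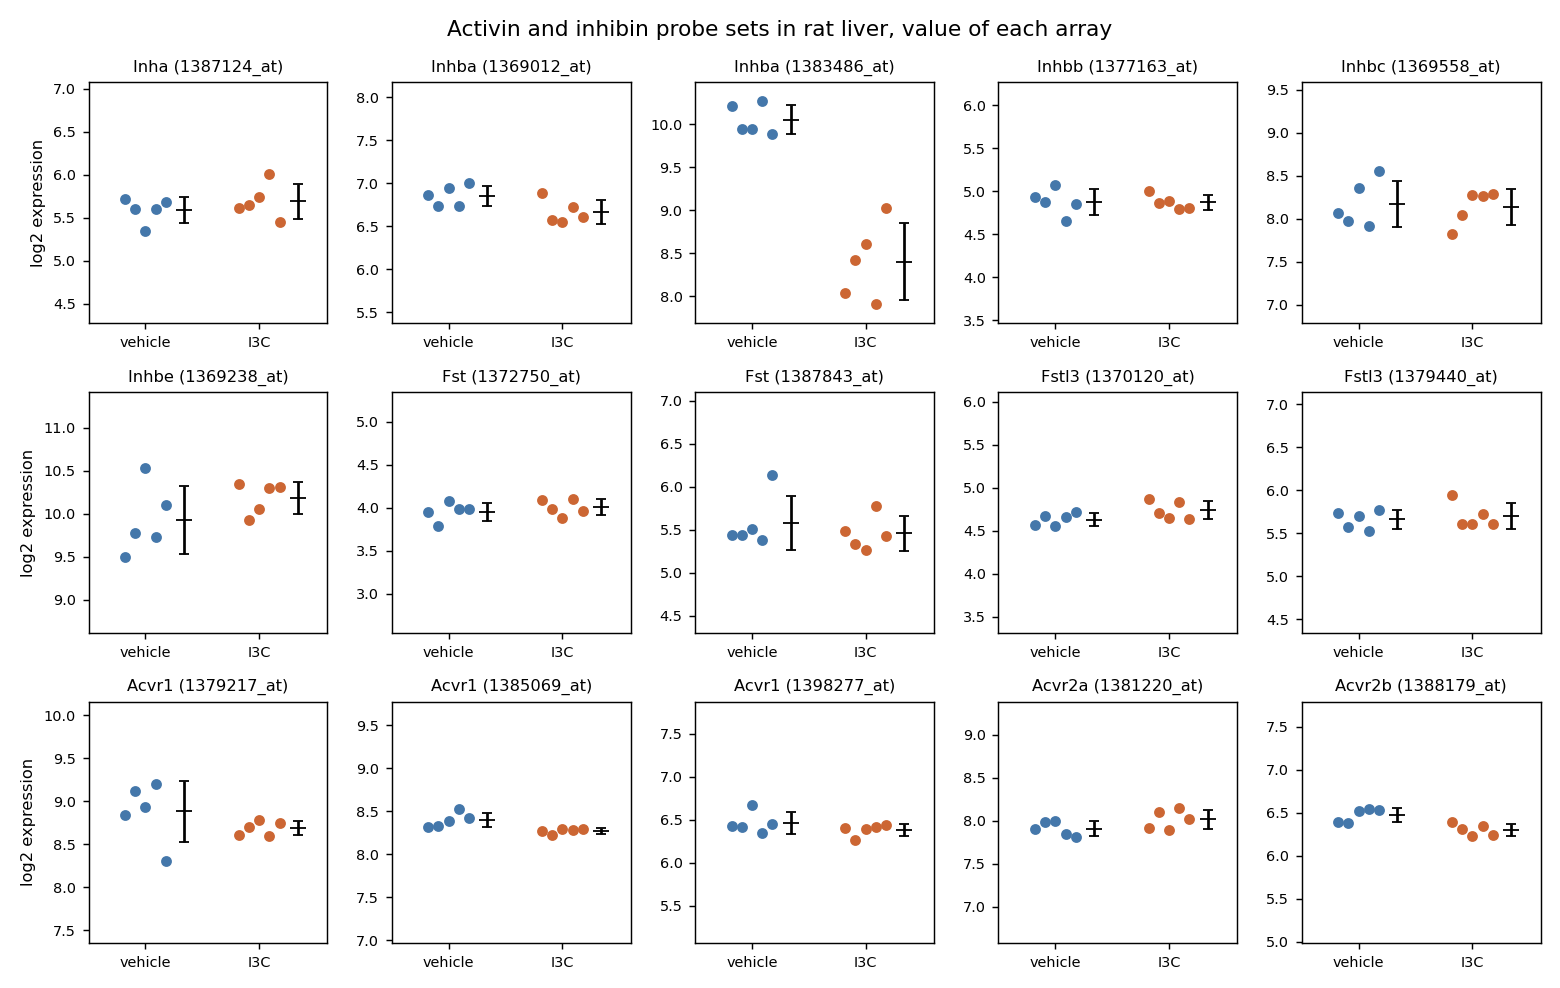
Log2 expression of the 15 activin and inhibin probe sets, with 1 point per array (5 vehicle in blue, 5 dosed with I3C in orange) and the mean ± SD as a bar. Every panel spans 2.8 log2 units, and the panel of Inhba 1383486_at is the one where the dosed samples (7.91 to 9.03) lie far under the vehicle samples (9.89 to 10.27).

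Inhbe, which encodes the beta E subunit, had the largest positive difference of the family, and its groups overlapped. It read 9.50, 9.77, 10.53, 9.73 and 10.10 in vehicle samples and 10.35, 9.93, 10.06, 10.30 and 10.31 in dosed samples. The vehicle group held both the lowest and the highest value, from vehicle 1 and vehicle 3. The difference of 0.26 ± 0.16 (SE) was smaller than the vehicle SD of 0.40. It stood at 0.41 ± 0.13 without vehicle 3 and at 0.15 ± 0.16 without vehicle 1.

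Inhbc, the beta C subunit encoded beside Inhbe, was level between the groups. Its values were 8.07, 7.97, 8.36, 7.92 and 8.55 in vehicle samples and 7.82, 8.04, 8.28, 8.26 and 8.29 in dosed samples. The difference was -0.04 ± 0.13 (SE), and 2 SE either way span -0.30 to 0.23. Without vehicle 5, its highest vehicle sample, it stood at 0.06 ± 0.11.

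Inhbb, the beta B subunit, and Inha, the alpha subunit that turns a beta subunit into an inhibin, gave low signals, at percentiles 25.1 and 39.3 of brightness. Inhbb ranged from 4.66 to 5.08 in vehicle and from 4.799 to 5.01 in dosed samples, with a difference of -0.01 ± 0.08 (SE). Inha ranged from 5.35 to 5.72 in vehicle and from 5.46 to 6.00 in dosed samples, with a difference of 0.10 ± 0.10 (SE). No change of either gene was detected.

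Neither binding protein separated the groups. Fst, follistatin, was dim on both of its probe sets, at percentiles 7.61 and 37.2. The brighter one (1387843_at) read 5.44, 5.44, 5.50, 5.39 and 6.13 in vehicle samples and 5.49, 5.33, 5.27, 5.78 and 5.43 in dosed samples. Vehicle 5 lay above every other sample, and the difference of -0.12 ± 0.14 (SE) became 0.02 ± 0.09 without it. The dimmer one (1372750_at) ran from 3.78 to 4.07 and from 3.88 to 4.10, with a difference of 0.05 ± 0.07 (SE).

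Fstl3, which binds activin and myostatin, differed by 0.11 ± 0.07 (SE) on 1370120_at and by 0.04 ± 0.08 on 1379440_at. The former ran from 4.55 to 4.72 in vehicle and from 4.63 to 4.87 in dosed samples, the latter from 5.53 to 5.77 and from 5.61 to 5.95. The groups overlapped on both, and both signals were dim, at percentiles 21.4 and 40.1.

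Among the receptors, Acvr1, a type I receptor also known as ALK2, had small negative differences on all 3 of its probe sets, none past the threshold. On 1385069_at it read 8.32, 8.32, 8.39, 8.52 and 8.42 in vehicle samples and 8.27, 8.22, 8.29, 8.28 and 8.29 in dosed samples. These groups did not overlap, at a difference of -0.12 ± 0.06 (SE), a 1.09-fold lower mean. On 1379217_at the values were 8.84, 9.12, 8.93, 9.20 and 8.31 against 8.61, 8.70, 8.78, 8.60 and 8.75. There vehicle 5 lay under all dosed samples and the other 4 vehicle samples lay above them, so that the difference was -0.19 ± 0.14 (SE) with vehicle 5 and -0.34 ± 0.08 without it. Past the limma threshold it lay in the fit without vehicle 5 alone among the leave-one-out fits, and it stood at -0.62 ± 0.17 with the GAPDH difference as a covariate and at 0.01 ± 0.16 with that of beta-actin. The dimmest probe set (1398277_at) differed by -0.08 ± 0.07 (SE), with overlap.

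The type II receptors differed by little, and neither lay past the threshold. Acvr2b read 6.39, 6.37, 6.52, 6.55 and 6.54 in vehicle samples and 6.39, 6.31, 6.22, 6.34 and 6.24 in dosed samples, where only dosed 1 reached the lowest vehicle values, at a difference of -0.17 ± 0.06 (SE). Acvr2a ran from 7.81 to 7.998 in vehicle and from 7.89 to 8.15 in dosed samples, at 0.11 ± 0.07 (SE), or -0.02 ± 0.11 with the GAPDH difference as a covariate. The means differed 1.13-fold for Acvr2b and 1.08-fold for Acvr2a, and the groups of each gene overlapped.

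**Figure D2:**
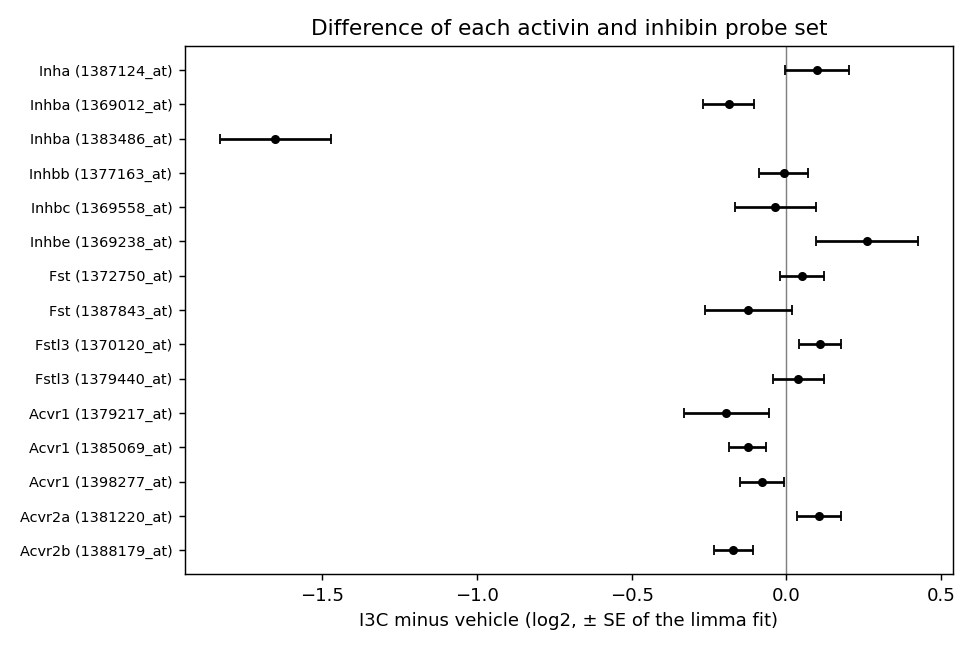
Difference of each of the 15 probe sets, dosed minus vehicle, on the log2 scale with the SE of the limma fit (n = 5 per group). Inhba 1383486_at stands at -1.65, and the other 14 probe sets lie between -0.19 and 0.26.

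The probe sets of other genes closest to the brighter Inhba probe set over the 10 arrays were those of Rprm, Ccnd1, Elapor1 and Mtmr7. Closeness was the root mean square difference of the 10 log2 values, each set relative to its vehicle mean. It was 0.26 for Rprm, known for arresting the cell cycle in G2, 0.37 and 0.39 for 2 probe sets of Ccnd1, which encodes cyclin D1, 0.39 for Elapor1, a protein of endosomes and lysosomes, and 0.41 for Mtmr7, a phosphoinositide phosphatase. Rprm read 5.41 and 5.42 in dosed 1 and dosed 4 and 6.19 to 6.42 in the other dosed samples, against 7.13 to 7.64 in vehicle samples. The 2 deepest samples were thus the same for Inhba and Rprm. Ccnd1 on its brighter probe set (1383075_at) was likewise lowest in dosed 4 and dosed 1, at 7.90 and 8.33. The dosed maximum of Rprm and of Ccnd1 lay in dosed 3, at 6.42 and 9.38, and not in dosed 5 as for Inhba. Elapor1 and Mtmr7 had other orders. Elapor1 was lowest in dosed 5 and dosed 2, at 6.00 and 6.02, and Mtmr7 in dosed 1 and dosed 5, at 6.67 and 7.25. These genes were picked for their likeness, so no test was made.

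**Figure D3:**
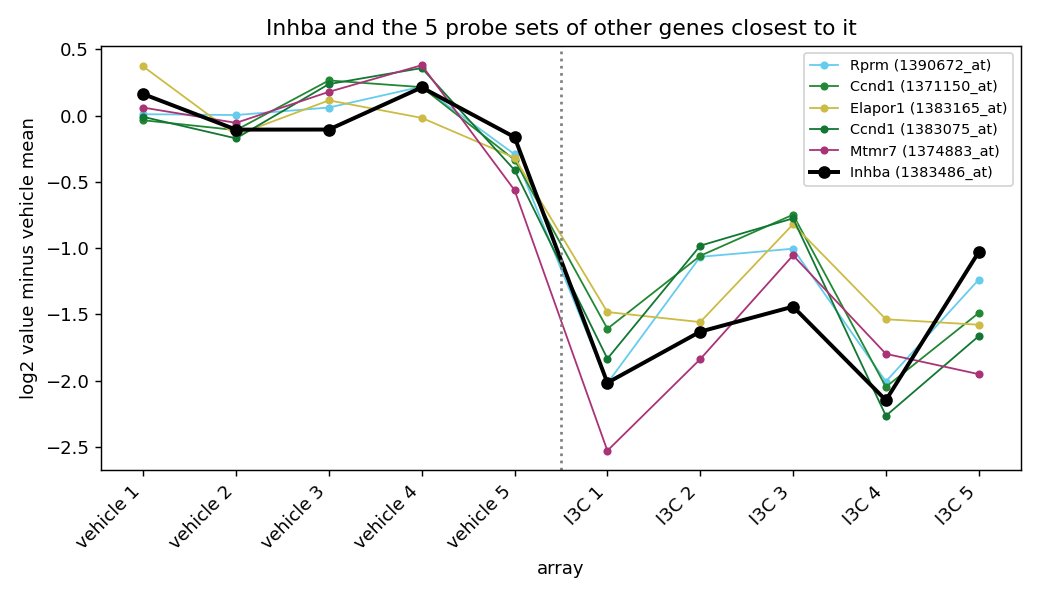
Log2 value minus the vehicle mean of its own probe set, for Inhba 1383486_at (black) and the 5 closest probe sets of other genes, in each of the 10 arrays. The order of arrays is that of their label numbers and carries no meaning. Subtracting the mean sets the vehicle average of each probe set to 0, and Inhba lies between 1.03 and 2.15 under its vehicle mean in the dosed arrays.

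The probe sets closest to Inhbe belonged to G0s2, an inhibitor of triglyceride lipase, Col1a1, a chain of type I collagen, Smg5, Lrrc28 and Otub2. Closeness was 0.15, 0.17, 0.18, 0.19 and 0.19 in that order. For Col1a1 it was 1370864_at, at a difference of 0.25 ± 0.10, whereas its brightest probe set (1388116_at) stood at 0.10 ± 0.11. G0s2 read 10.97, 10.88, 11.80, 11.05 and 11.01 in vehicle samples and 11.64, 11.22, 11.36, 11.52 and 11.63 in dosed samples. It shared with Inhbe the high value in vehicle 3, and its groups overlapped as well. In the main fit G0s2 stood at 0.33 ± 0.16 and did not pass (limma adjusted p = 0.32). It passed in 1 of 18 alternative fits, the one without vehicle 3, at 0.50 ± 0.10 (limma adjusted p = 0.0146). Lrrc28 also passed in 1 alternative fit, the one without dosed 3 (limma adjusted p = 0.0353). These genes were picked for their likeness to Inhbe, vehicle 3 included, so nothing is read from these calls.

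In the pathway around the family, 4 of 65 measured genes outside it fell and 0 rose, against 3.11% of all 14217 genes that fell and 3.32% that rose (limma, Benjamini-Hochberg over all probe sets, each gene by its brightest probe set). In either direction 6.15% of the 65 passed, close to the 6.43% of all genes that did. Before adjustment, p was under 0.05 for 4 higher and 13 lower genes of the 65 (6.15% and 20%), against 9.62% and 10.2% of all genes. The median difference was -0.07 against -0.0039 over all genes. The lists were chosen with earlier results of these data known, so nothing is read from these counts or this median. The 65 genes are those matched of 78 listed in 6 groups. The count of fallen genes was 1 with the GAPDH difference as a covariate, 6 without vehicle 5 or with array weights, 3 without vehicle 4 or dosed 4, and 2 with any other single array left out. A single gene rose without vehicle 2 (Tgif1) and a single one with array weights (Atoh8).

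Among 10 other receptors and coreceptors 1 fell (10%, where 6.43% of all genes passed in either direction). It was the coreceptor Hjv, which works with BMP receptors to drive hepcidin in hepatocytes. Hjv read 10.68, 10.65, 10.52, 10.42 and 10.77 in vehicle samples and 9.97, 10.18, 10.27, 9.87 and 10.13 in dosed samples, without overlap. The difference was -0.52 ± 0.09 (SE, limma adjusted p = 0.0052), and it became -0.36 ± 0.14 with the GAPDH difference as a covariate (adjusted p = 0.274). Tgfbr1, the type I receptor of TGF-beta, differed by -0.13 ± 0.10, or -0.21 ± 0.07 without vehicle 5, and did not pass. Of the 10, 0 higher and 2 lower (Hjv and Acvr1c) had an unadjusted p under 0.05. Acvr1c, chosen with its value in view, stood at -0.41 ± 0.17 with overlap. It did not pass (limma adjusted p = 0.221), but passed without vehicle 5.

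Of 11 measured genes listed as SMAD targets 3 fell and 0 rose (27.3%), where 6.43% of all genes passed in either direction. Nothing is read from that count, as the list was chosen with earlier results of these data known. The median difference was -0.02, and 1 higher (Atoh8) and 3 lower genes had an unadjusted p under 0.05. Tgfbi, a matrix protein named for its response to TGF-beta, ranged from 11.75 to 11.84 in vehicle and from 11.20 to 11.33 in dosed samples. Its difference of -0.54 ± 0.06 (SE, limma adjusted p = 0.000147) also passed in each of the 18 alternative fits, at adjusted p from 5.30e-05 to 0.023. Cdkn1a, the cell cycle inhibitor p21, read 9.18, 8.99, 9.24, 8.38 and 9.42 in vehicle samples and 8.16, 7.90, 7.99, 8.77 and 8.42 in dosed samples. Its groups overlapped through vehicle 4, which lay under dosed 4 and dosed 5.

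The difference of Cdkn1a was -0.80 ± 0.20 (SE, limma adjusted p = 0.0364), and its call ended under 11 of 18 alternatives, among them leaving out any array but vehicle 4 or dosed 4 (limma adjusted p up to 0.318). Fn1, fibronectin, differed by -0.29 ± 0.07 (SE, limma adjusted p = 0.0474), and its call ended under 14 of 18, leaving out any single array among them (limma adjusted p up to 0.345). Both genes also answer to signals other than SMAD proteins. In the same list Hamp, hepcidin, the product that Hjv is known to drive and chosen here with its value in view, stood at 0.01 ± 0.10 (SE) and did not pass.

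In the other 4 groups no gene passed limma in the main fit. Their counts at an unadjusted p under 0.05 stand against the 9.62% higher and 10.2% lower of all genes. Of 12 other ligands 1 higher (Gdf15) and 3 lower (Bmp2, Bmp4 and Bmp5) had an unadjusted p under 0.05. Bmp2 stood at -0.31 ± 0.12, and Bmp7, which was not among them, at -0.27 ± 0.17. Bmp2 passed without vehicle 5, at -0.42 ± 0.08, and with array weights, and Bmp5 passed in the same fits. Bmp7 stood at -0.09 ± 0.11 without vehicle 5. Gdf15, a stress hormone of the same superfamily, was chosen with its value in view. It had the largest positive difference among the ligands, 0.79 ± 0.27, and did not pass (limma adjusted p = 0.139). All dosed samples lay above every vehicle sample (5.70 to 6.37). Dosed 4 read 8.09 and the other dosed samples 6.48 to 6.68, so the size of the difference leans on dosed 4. Of 8 SMAD genes 0 higher and 1 lower (Smad5) had an unadjusted p under 0.05. Smad1 stood at -0.01 ± 0.07 and Smad4, the shared partner of the receptor-driven SMADs, at 0.03 ± 0.08. Without vehicle 5 they stood at -0.05 ± 0.07 and -0.03 ± 0.07.

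Of 15 antagonists and processing enzymes 0 higher and 4 lower (Fstl1, Ltbp1, Ltbp3 and Ltbp4) had an unadjusted p under 0.05. Ltbp4 passed without vehicle 5, with the beta-actin difference as a covariate and with the replicate number as a block. Furin, a protease that cuts activin precursors, stood at -0.20 ± 0.11 and Pcsk6, a related protease, at 0.10 ± 0.12. Without vehicle 5 they stood at -0.09 ± 0.07 and 0.16 ± 0.12. Of 9 partners and regulators of SMADs 2 higher (Tgif1 and Ppm1a) and 0 lower had an unadjusted p under 0.05. The phosphatase Ppm1a stood at 0.16 ± 0.06, and the ubiquitin ligase Smurf2, which was not among them, at 0.09 ± 0.09, or -0.0023 ± 0.06 without vehicle 5. The genes named for their unadjusted p, and Tgif1 and Atoh8 above, were chosen after their values were seen.

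**Figure D4:**
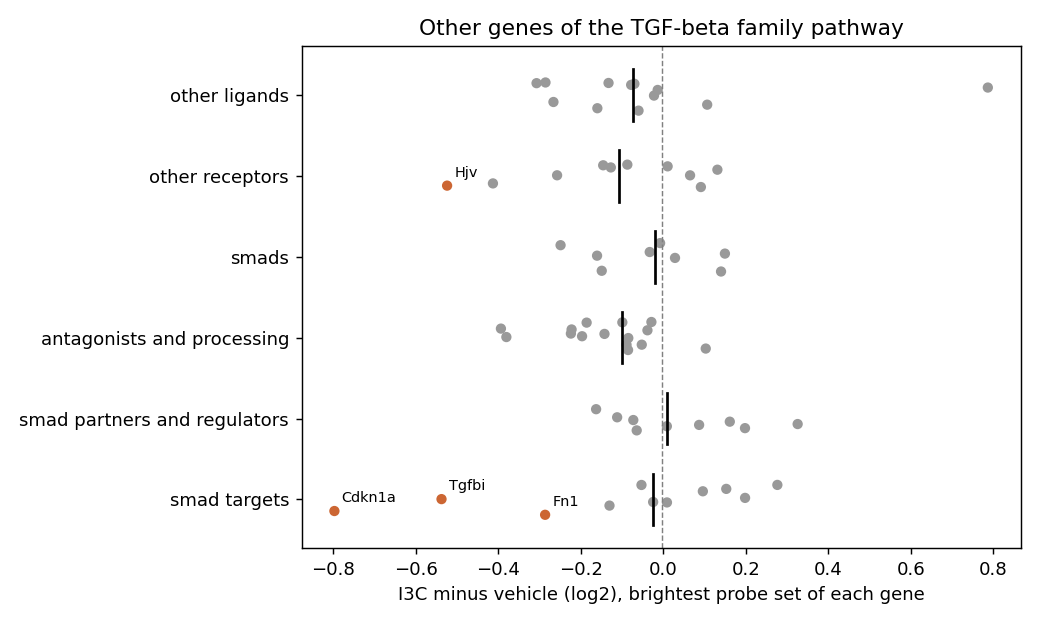
Difference, dosed minus vehicle (log2), of 65 other genes of the TGF-beta family pathway in 6 groups, with 1 point per gene, the median of each group as a black bar and the median of all genes as a dashed line. The 4 named orange points, Hjv, Tgfbi, Cdkn1a and Fn1, passed the limma threshold and all lie under 0.

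Markers of other liver cells, and of pancreatic acinar cells, were read beside these results. In whole tissue fewer cells of a type and less RNA per cell cannot be told apart. The summed level of 6 Kupffer cell markers ran from 12.37 to 12.73 in vehicle and from 11.82 to 12.30 in dosed samples, without overlap. Of the 6, 1 fell, Cd5l, where 3.11% of all genes did. All 6 differences were negative, from -0.52 (Cd5l) to -0.22 (Cd163), with a median of -0.36. Clec4f and Cd5l, the brightest at vehicle means of 11.35 and 10.61, weighed most in that sum. For 6 endothelial markers the sum ran from 12.26 to 12.38 and from 12.05 to 12.27, with overlap, and no gene passed. For 9 stellate cell and fibroblast markers it ran from 11.69 to 11.99 and from 11.51 to 11.81, with overlap. There Lrat fell by 0.51 ± 0.10 and Rgs5 rose by 1.33 ± 0.18. Col3a1 and Reln, the brightest of the 9 at vehicle means of 10.83 and 9.89, weighed most in that sum. For 8 pancreatic acinar markers the sum ran from 11.26 to 12.07 and from 9.94 to 10.68. It was set by Cpa1, which fell by 2.10 ± 0.28 and was the 1 of the 8 that passed. Cela1, an elastase at percentile 70.4 of brightness, stood at 0.49 ± 0.17, and Cpb1, a carboxypeptidase at percentile 57.9, at -0.30 ± 0.12. The other 5 lay between percentile 1.71 (Amy2a3, an amylase) and 46.3 (Pnlip, a lipase), with the trypsinogen Prss1 at 16.0.

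Sums of 4 mesothelial, 5 cholangiocyte and 7 lymphocyte markers overlapped between the groups, and no gene of these passed. The part of any of these cells, or of RNA quality, in the lower Inhba signal was not tested. The GAPDH difference separated the groups, so its covariate fit cannot tell RNA quality from dosing. With the GAPDH difference as a covariate Inhba stood at -1.57 ± 0.30 (SE), with that of beta-actin at -1.42 ± 0.21, and without vehicle 5 at -1.69 ± 0.19.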

How the data were processed

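The table used holds the authors' deposited log2 expression values of 10 arrays, which the submitters' processing notes credit to RMA (robust multi-array averaging). For its software and version, the sources used here give nothing. RMA evens out the arrays, so that any change shared by all genes disappears and large folds can be understated. With 5 arrays per group, their number limits the precision. No array copied another (SD of the difference of any pair at least 0.17).

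Probe sets were named from the platform annotation of 2016, with symbols by Entrez ID from RefSeq (GRCr8, names only). A single gene was named for 20826 of 31042 probe sets, more than 1 for 436, and none here for 9780. Dosed minus vehicle differences were fitted with limma 3.58.1 under R 4.3.3 (lmFit, eBayes, prior degrees of freedom 4.60), two-sided, Benjamini-Hochberg over all 31042 at a threshold of 0.05, and tested on simulated data. "Rose" and "fell" mark genes past it, and ± after a difference is the SE.

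The members, lists and tests were chosen with earlier results of these data known. Named are all members, up to 4 genes per list by size among those that passed, or the 2 brightest where fewer than 2 passed, and the 5 probe sets closest to the members with the largest fall and rise. Summed marker levels are the log2 of summed linear values. Same-numbered samples correlated at -0.28 to 0.22 in their deviations, so the numbers were not taken as pairs. Subunit proteins were not analysed here.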

Additional observations from a re-analysis of the deposited data

Results flagged for a closer look

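Of 30 groups of 5 samples, 2 held a sample far from the other 4, where chance gives about 1 in 20. The count is near that share, so nothing is read from it. On the brighter Fst probe set (1387843_at) vehicle 5 read 6.13, above the other vehicle samples at 5.39 to 5.50. On Acvr1 (1385069_at) dosed 2 read 8.22, under the other dosed samples at 8.27 to 8.29. The gap to the nearest sample was 0.84 of the range of the group for Fst and 0.72 for Acvr1, where that range is narrow.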

How the results depend on the processing

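The difference of Inhba (1383486_at) ran from -1.81 to -1.42 over 18 alternative fits. The count of members past it ran from 1 to 2 with 1 array left out, the second being Acvr1 (1379217_at) without vehicle 5. All probe sets past the threshold were 1487, against 355 with the GAPDH covariate, 752 with the beta-actin covariate, 646 at an adjusted p of 0.01, and 1035 to 2085 with 1 array left out. Other pathway genes past it were 4, against 1 with the GAPDH covariate, 7 with array weights, 2 at an adjusted p of 0.01, and 2 to 6 with 1 array left out: 2 without vehicle 1, vehicle 3, dosed 1, dosed 2, dosed 3 or dosed 5, 3 without vehicle 2 (1 of them higher), and 6 without vehicle 5. Of the 7 with array weights 1 was higher. With the replicate number as a block the counts were 1032, 1 member and 3 pathway genes. Cdkn1a and Fn1 lost their calls under the block and Ltbp4 gained one.

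Among named genes outside the family, signs turned for 6, none of which passed. With the GAPDH covariate Bmp7 stood at 0.27, Smad4 at -0.13, Furin at 0.15 and Smurf2 at -0.26. With the beta-actin covariate Smad1 stood at 0.0804 and Pcsk6 at -0.0836, and Smad1 at 0.0024 with renewed quantile normalisation and 0.0049 with median centring. With 1 array left out the values ran from -0.0496 to 0.0228 for Smad1, -0.0291 to 0.0594 for Smad4, -0.0182 to 0.158 for Pcsk6 and -0.0023 to 0.131 for Smurf2. The cause was not tested. Of the 15 member probe sets 7 changed sign under at least 1 alternative, neither of Inhba nor that of Inhbe among them. The GAPDH covariate moved Inhbc to 0.26, Fst (1387843_at) to 0.21, Acvr1 (1379217_at) to -0.62 and Acvr2a to -0.02, and the beta-actin covariate moved that Fst probe set to -0.41. Inha, Inhbb, Fst and Fstl3 were read from dim probe sets, and their signal over background was not measured here.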
